A study of Mus musculus with 140 samples.

Results

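Glomeruli of healthy mouse kidneys were set against whole kidney of the same animals, gene by gene. Both sample types came from 4 male wild-type C57BL6/OlaHsd mice that had no operation and are given as healthy controls at 0 h. Each mouse contributed 1 library of glomeruli cut out by laser microdissection and 1 library of whole kidney, which was not microdissected. These 8 libraries were chosen by compartment and disease state from the labels, out of 140 libraries of 28 mice. The other healthy libraries are 12 of arterioles, peritubular capillaries and post-capillary venules of the same 4 mice, all microdissected. The remaining mice had surgery, either cecal ligation and puncture (CLP), which seeds gut bacteria into the abdomen and models sepsis, or a sham procedure, and were taken 4, 24 or 72 h later. Of their libraries, 48 are of glomeruli or whole kidney. No age is given for the mice, and no gene was altered in any group.

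The glomerulus is the filter of the kidney, a tuft of capillaries inside Bowman's capsule. Its wall has 3 layers in series, a fenestrated endothelium, a basement membrane of type IV collagen and laminin, and podocytes whose interlocking foot processes are bridged by the slit diaphragm. Mesangial cells hold the capillary loops together, parietal epithelium lines the capsule, and renin-producing cells sit in the arteriole at the vascular pole. Podocytes secrete VEGF-A, which maintains the endothelium on the other side of the membrane. Whole kidney is by mass mostly tubule, above all proximal tubule, a segment rich in mitochondria that reabsorbs most of the filtrate.

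RNA was read by 3′ end sequencing (QuantSeq), in which each transcript gives reads near its polyadenylated end, so levels are compared here between samples for one gene and not between genes. Levels are CPM, counts per mega counts of the scaled library total. Library totals were 7.3 to 9.79 M (mega) counts in glomeruli and 7.65 to 12.3 M in whole kidney. At least 1 count was found for 13495.5 ± 520.1 genes in glomeruli and 19290.25 ± 922.1 genes in whole kidney (SD, n = 4 each). The 10 genes with the most counts took 9.997 to 15.1% of a library in glomeruli and 25.6 to 30.4% in whole kidney. Replicates were less alike in glomeruli, where the Pearson correlation of log levels between mice was 0.635 to 0.704, than in whole kidney, where it was 0.957 to 0.982. Between a glomeruli and a whole kidney library it was 0.594 to 0.668, a range that overlaps the range among glomeruli. The biological coefficient of variation was 1.19 in glomeruli and 0.201 in whole kidney.

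The 4 marker genes given for glomeruli were all higher in glomeruli, with no overlap between the groups. Lack of overlap was common, since 4274 of all genes tested (32.8%) had it in 1 direction or the other. Nphs1 (nephrin, the backbone of the slit diaphragm, chr7:30458315-30487223 in GRCm38) had 164, 137, 184 and 895 CPM in glomeruli, against 6.66, 4.64, 6.74 and 6.01 CPM in whole kidney, in mice 1 to 4. Mouse 4 stood far above the other glomeruli, and each of the 4 was above every whole kidney. The log2 fold change was 5.33 ± 0.47 (SE; edgeR quasi-likelihood test with Benjamini-Hochberg adjustment over all genes tested, adjusted p = 9.79e-06). Wt1, a zinc finger transcription factor that podocytes keep for life (chr2:105126529-105173616), had 390.3, 543, 323 and 229 CPM in glomeruli, against 8.62, 8.53, 11.2 and 9.74 CPM in whole kidney. The change was 5.21 ± 0.35 (adjusted p = 1.28e-06). Ehd3, an endocytic recycling protein of glomerular endothelium (chr17:73804134-73832094), had 3304, 2290, 2272 and 2684 CPM in glomeruli, against 72.5, 79.0, 55.1 and 69.1 CPM in whole kidney, a change of 5.25 ± 0.20 (adjusted p = 1.92e-08). Kdr, the main receptor for VEGF-A (chr5:75932827-75978458), had 1563, 1051, 1645 and 1710.1 CPM in glomeruli, against 128, 215, 169 and 184 CPM in whole kidney, a change of 3.10 ± 0.23 (adjusted p = 3.28e-06). Podocyte and endothelial markers stood high in the same 4 libraries.

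**Figure D1:**
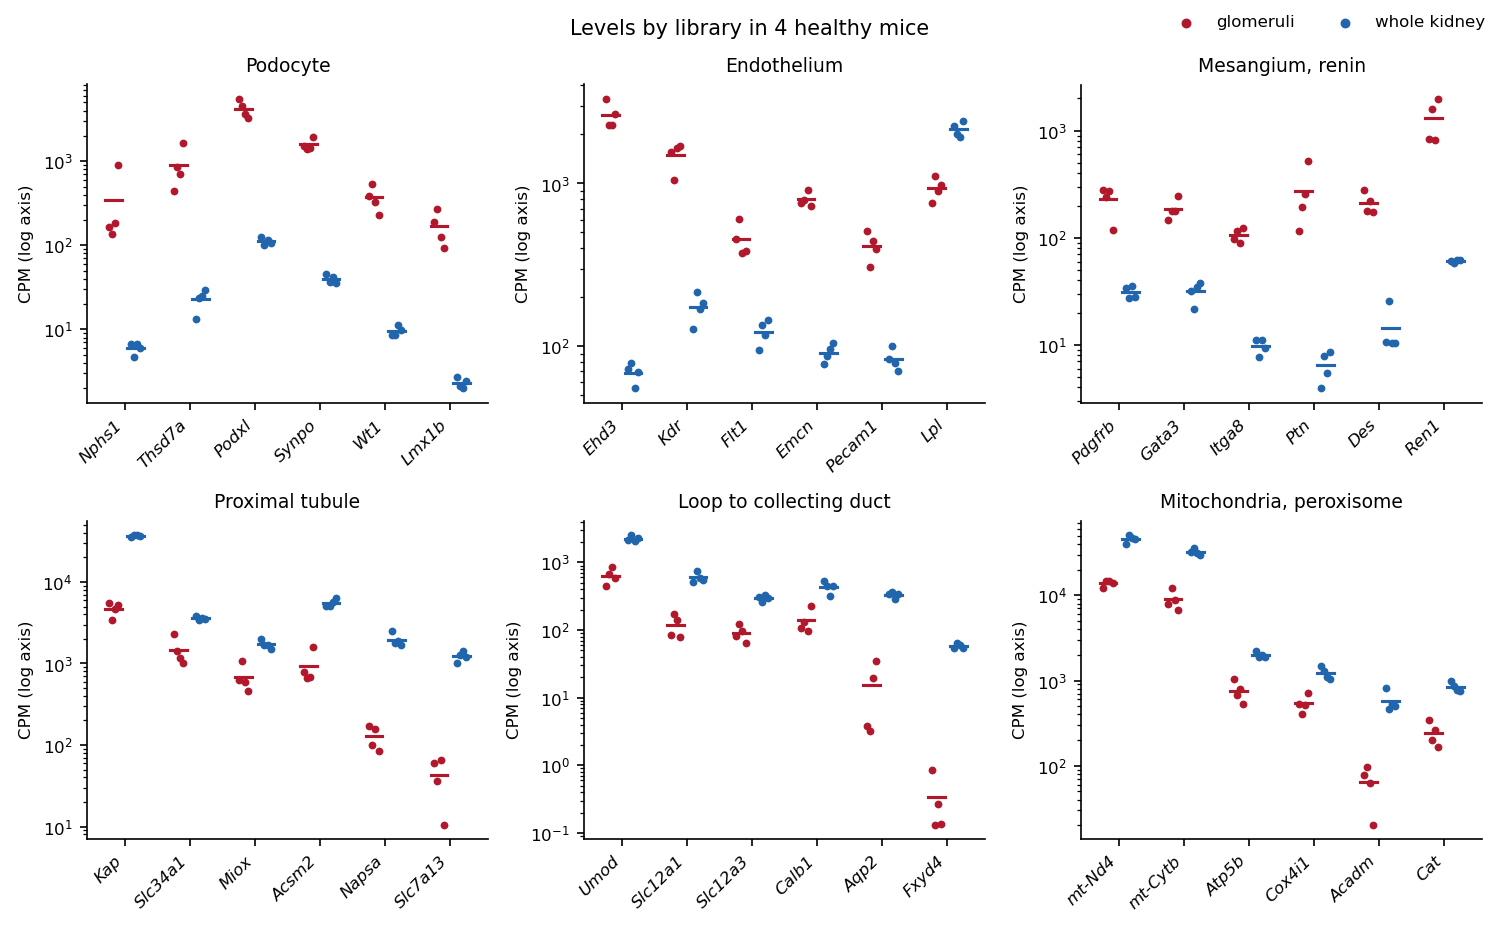
Level of genes in each library on a log CPM axis, by cell type, with glomeruli left of whole kidney, 1 point per mouse (n = 4 each) and a bar at the mean. The podocyte, endothelial (except Lpl), mesangial and renin genes lie higher in all 4 glomeruli libraries, and the tubular, mitochondrial and peroxisomal genes lower, for example Nphs1 at 137 to 895 CPM in glomeruli and 4.64 to 6.74 CPM in whole kidney, and Kap at 3417 to 5452 CPM in glomeruli and 35914 to 37486 CPM in whole kidney.

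Across the table, 13041 of 34255 genes had enough counts to be tested. With the mouse as a block, 1127 genes (8.64% of those tested) were higher in glomeruli and 1384 (10.6%) lower, so that 19.3% passed an adjusted p of 0.05 in either direction. The median log2 fold change of all genes tested was -0.49. Scaling by library totals alone moved that median by 0.22 and the share of higher genes among those that passed to 55.5%, against 44.9% with the main scaling. The number of genes that passed dropped to 1414, 1778, 1288 and 1581 when mice 1, 2, 3 and 4 were left out in turn. Each of these fits passed more higher than lower genes, 765 and 649, 960 and 818, 700 and 588, and 843 and 738, so that 53.3 to 54.3% of the genes that passed were higher. A fit of all 20 healthy libraries, which shares 1 estimate of spread among the 5 compartments, passed 504 genes, 490 of them among the 2511 and in the same direction. The main fit also shares 1 estimate of spread per gene, between glomeruli and whole kidney. Their own biological coefficients of variation were 1.19 and 0.201, as given above. In such bulk samples more cells of a type and more RNA per cell cannot be told apart, and neither can the compartment and the microdissection, since no whole kidney was microdissected.

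Podocyte genes were higher in glomeruli, and the lists of their slit diaphragm and their transcription factors had the highest medians of the 38 lists examined. Of 18 genes of the slit diaphragm and its junctions 16 were tested, and 13 were higher in glomeruli and none lower, with a median log2 fold change of 3.46. Their summed level was 10240, 9554, 8935 and 11380 CPM in the 4 glomeruli libraries, against 641, 593, 655 and 660.3 CPM in the 4 whole kidneys, a ratio of 15.7. Podxl (podocalyxin, the charged sialomucin of the foot process surface) had 5494, 4481, 3679 and 3236 CPM in glomeruli, against 125, 102, 117 and 106 CPM in whole kidney, a change of 5.21 ± 0.18 (adjusted p = 1.92e-08). Thsd7a, a podocyte membrane protein known as an autoantigen in membranous nephropathy, had 447, 861, 701 and 1632 CPM in glomeruli, against 13.3, 23.3, 24.9 and 29.7 CPM in whole kidney, a change of 5.22 ± 0.25. Its 4 glomeruli differed among themselves, with mouse 4 highest, and none came near whole kidney.

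Further slit and junction members were higher too. The receptor phosphatase Ptpro changed by 4.76 ± 0.36, the scaffold Magi2 by 4.31 ± 0.28 and the phospholipase Plce1, a gene of inherited nephrotic syndrome, by 4.55 ± 0.36 on the log2 scale (adjusted p = 3.28e-06, 9.46e-07 and 4.09e-06). Cd2ap, the adaptor that ties nephrin to actin, lay at 90.3, 128, 149.7 and 216 CPM in glomeruli, against 57.7, 66.9, 66.0 and 67.2 CPM in whole kidney. Its change of 1.11 ± 0.32 passed with all 4 mice (adjusted p = 0.031), but not without mouse 1, 2, 3 or 4 (adjusted p = 0.0541, 0.0615, 0.125 and 0.127). The slit members that did not pass were Kirrel, Fat1 and Cdh13.

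Podocyte cytoskeleton genes gave 11 higher and 1 lower of 14 tested, with a median of 3.11. Synpo (synaptopodin, an actin-binding protein of foot processes) had 1521, 1416, 1448 and 1961 CPM in glomeruli, against 45.2, 36.2, 42.1 and 35.5 CPM in whole kidney. No other library came between the groups, and the log2 fold change was 5.31 ± 0.22 (adjusted p = 3.45e-08). Nes (nestin, an intermediate filament protein) had 1158, 762.2, 937 and 613 CPM in glomeruli, against 21.4, 23.0, 20.4 and 14.2 CPM in whole kidney, a change of 5.44 ± 0.25. Cdkn1c (p57, a cell-cycle inhibitor of non-dividing podocytes) had 965, 651, 883 and 997 CPM in glomeruli, against 29.8, 35.3, 38.4 and 46.2 CPM in whole kidney, a change of 4.54 ± 0.24. For each of these 3 genes the 4 mice were alike within a compartment and far apart between compartments. Actin-linked genes that many cells share rose less, Actn4 by 1.30 ± 0.21 and Myh9 by 2.04 ± 0.22 on the log2 scale (adjusted p = 0.000851 and 4.03e-05). The member that fell was Vil1 (villin, a microvillus protein also made in the brush border of proximal tubule), with 11.5, 26.5, 57.04 and 24.1 CPM in glomeruli, against 90.3, 88.4, 87.8 and 90.9 CPM in whole kidney. Its change of -1.81 ± 0.48 had an adjusted p of 0.0217, which became 0.0952, 0.0515 and 0.0673 without mouse 1, 2 and 4.

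Of 12 podocyte transcription factors 11 were tested, and 6 were higher and none lower (median 3.47). Lmx1b, the homeodomain factor mutated in nail-patella syndrome, had 189.6, 272, 126 and 93.9 CPM in glomeruli, against 2.74, 2.09, 1.99 and 2.40 CPM in whole kidney. Whole kidney was near the lower end of what was tested, and the change was 6.08 ± 0.46 (adjusted p = 3.28e-06). The forkhead factors Foxd2, Foxc2 and Foxc1 changed by 5.59 ± 0.48, 3.86 ± 0.55 and 3.47 ± 0.30 (adjusted p = 7.87e-06, 0.000369 and 7.79e-06). Foxc2 did not pass with all 20 healthy libraries in the fit (adjusted p = 0.185). Tcf21, a factor of podocyte and stromal progenitors, had 39.7, 69.5, 59.4 and 19.6 CPM in glomeruli, against 16.5, 14.1, 14.9 and 12.4 CPM in whole kidney. Its groups did not overlap, but the change of 1.56 ± 0.65 did not pass (adjusted p = 0.118).

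Promoters of 3 podocyte genes are shown because podocyte genes were higher together, and Wt1 and Lmx1b, which encode DNA-binding factors, were higher with them. Among the 39 members of the 4 podocyte lists that were higher, 30 had a promoter in RefSeq (GRCm38.p6), with 37 windows of 300 bases that run from 250 bases before to 50 after a start of transcription. The letters GCGTGGG, a core of the motif that WT1 binds, occurred on either strand in 3 of these windows (8.11%), against 5.04% of all 32851 windows. TAATTA, the homeodomain core that factors such as LMX1B bind, occurred in 1 (2.7%), against 5.29% of all. No match of one motif overlapped a match of the other. Nphs1 (chr7:30459808-30460107, plus strand) held neither in this window. Magi2 (chr5:19226796-19227095, plus strand) held the first on its reverse strand, and a further Magi2 window (chr5:19907268-19907567, plus strand) held the 1 TAATTA. Thsd7a (chr6:12749204-12749503, minus strand) held GCGTGGG on its forward strand. Capitals mark the match, and a match is a description of the letters, not evidence of binding.
Nphs1: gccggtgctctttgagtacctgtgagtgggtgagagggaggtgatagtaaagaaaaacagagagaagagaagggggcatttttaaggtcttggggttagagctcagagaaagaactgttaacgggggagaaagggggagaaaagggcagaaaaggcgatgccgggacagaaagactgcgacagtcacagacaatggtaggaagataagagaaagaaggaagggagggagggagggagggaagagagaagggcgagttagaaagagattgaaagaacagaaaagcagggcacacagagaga
Magi2: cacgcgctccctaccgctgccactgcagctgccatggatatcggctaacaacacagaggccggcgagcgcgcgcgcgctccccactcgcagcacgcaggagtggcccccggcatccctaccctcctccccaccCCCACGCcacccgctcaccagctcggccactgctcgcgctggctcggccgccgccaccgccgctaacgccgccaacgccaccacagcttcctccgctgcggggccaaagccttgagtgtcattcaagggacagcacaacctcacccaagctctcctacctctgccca
Thsd7a: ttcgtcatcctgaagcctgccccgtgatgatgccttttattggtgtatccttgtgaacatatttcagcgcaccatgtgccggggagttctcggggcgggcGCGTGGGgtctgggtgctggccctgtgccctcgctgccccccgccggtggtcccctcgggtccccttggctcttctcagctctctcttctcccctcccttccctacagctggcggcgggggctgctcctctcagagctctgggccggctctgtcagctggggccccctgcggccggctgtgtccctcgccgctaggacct

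Podocyte ligands and receptors were more mixed, with 9 higher and 1 lower of 14 tested (median 1.98). Vegfa, the ligand of Kdr, had 156, 342, 342 and 256 CPM in glomeruli, against 73.5, 49.8, 68.9 and 61.7 CPM in whole kidney. Every glomerulus library was above every whole kidney, and the change was 2.06 ± 0.32 (adjusted p = 0.000763). The secreted semaphorin Sema3g had 1535, 1036, 1034 and 892 CPM in glomeruli, against 25.3, 28.4, 27.7 and 23.9 CPM in whole kidney, a change of 5.39 ± 0.24. Sema3g is counted in the podocyte cytoskeleton and arterial endothelium lists, not among these 14. Angptl2, a secreted angiopoietin-like protein, changed by 4.38 ± 0.28, and the membrane ligand Efnb1 (ephrin-B1) by 3.75 ± 0.30 (adjusted p = 8.85e-07 and 4.91e-06). The surface peptidase Dpp4 changed by 2.41 ± 0.29 and the stress-response gene Nupr1 by 2.81 ± 0.40. The member that fell was Dcn (decorin, a matrix proteoglycan that fibroblasts also make), with 26.8, 71.9, 30.1 and 32.2 CPM in glomeruli, against 133, 132, 133 and 127 CPM in whole kidney and a change of -1.83 ± 0.38 (adjusted p = 0.00494). Angpt1, the ligand of the receptor Tek, had 0, 0.133, 1.93 and 0.134 CPM in glomeruli, against 18.4, 8.68, 10.98 and 9.74 CPM in whole kidney. Its groups did not overlap, and the change did not pass (adjusted p = 0.0722). In the fit of all 20 healthy libraries 3 of these 14 were higher, and Vegfa, Dpp4 and Nupr1 were among those that no longer passed.

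Endothelial genes rose as a second group. Of 19 genes of glomerular endothelium 18 were tested, and 12 were higher and 1 lower, with a median of 2.17, and of 17 genes common to endothelium 12 were higher and none lower, with a median of 2.35. Emcn (endomucin, a capillary sialomucin) had 754, 790.4, 916 and 729 CPM in glomeruli, against 77.5, 86.9, 95.8 and 104 CPM in whole kidney. The groups lay far apart, with a change of 3.13 ± 0.21 (adjusted p = 1.44e-06). Plat (tissue plasminogen activator) had 184, 532, 169 and 74.7 CPM in glomeruli, against 26.8, 6.58, 17.6 and 17.6 CPM in whole kidney, with mouse 2 highest in glomeruli and lowest in whole kidney. Its change was 3.47 ± 0.60 (adjusted p = 0.00148). Pi16, a peptidase inhibitor, changed by 5.22 ± 0.45, Mapt (the microtubule protein tau) by 2.14 ± 0.20 and Igfbp5, a binding protein for insulin-like growth factors, by 1.14 ± 0.22. The exception was Lpl (lipoprotein lipase, made in many kidney cells), with 759, 1104, 901 and 972 CPM in glomeruli, against 2259.8, 2026, 1919 and 2413 CPM in whole kidney, a change of -1.21 ± 0.17 (adjusted p = 0.000262).

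Junction and surface genes found in all endothelium were higher too. Pecam1 (CD31) had 512, 307, 444 and 395 CPM in glomeruli, against 83.6, 100.4, 79.3 and 70.6 CPM in whole kidney, a change of 2.30 ± 0.26 (adjusted p = 6.67e-05). Icam2 changed by 3.83 ± 0.33, Egfl7 by 3.18 ± 0.29, the TGF-beta co-receptor Eng by 2.48 ± 0.31 and the phosphatase Ptprb, which acts on Tek, by 2.82 ± 0.26. Plvap, which forms the diaphragm of fenestrae in peritubular capillaries and is low in mature glomerular endothelium, had 117, 84.7, 94.6 and 85.5 CPM in glomeruli, against 129, 111, 111 and 108 CPM in whole kidney. Its groups overlapped, and the change of -0.28 ± 0.30 did not pass (adjusted p = 0.578). With all 20 libraries in the fit, 6 of the 18 glomerular endothelium genes and 5 of the 17 common ones were higher.

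VEGF and angiopoietin signalling genes covered both sides of the filter, and 11 of 17 were higher and none lower (median 2.06). Beside the ligand Vegfa and the receptor Kdr, the co-receptor Nrp1 had 1597, 1768, 1529 and 1683 CPM in glomeruli, against 184, 206, 217 and 223 CPM in whole kidney. The mice lay close together within each compartment, with a change of 2.99 ± 0.18 (adjusted p = 5.99e-07). Flt1, the decoy-type receptor for VEGF-A, changed by 1.88 ± 0.24 and Tie1 by 2.20 ± 0.36 (adjusted p = 0.000169 and 0.00112). Tek had 120.1, 48.8, 53.7 and 33.4 CPM in glomeruli, against 19.3, 13.8, 16.9 and 16.7 CPM in whole kidney, and all 4 glomeruli were above all 4 whole kidneys. Its change of 1.78 ± 0.54 had an adjusted p of 0.0372, which was 0.246, 0.0666 and 0.119 without mouse 1, 2 and 3. With all 20 libraries in the fit 6 of the 17 were higher.

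Mesangial and pericyte genes gave 11 higher and none lower of 18 tested (median 2.69), and their summed level was 6.11 times that of whole kidney. Pdgfrb, the receptor through which PDGF-B recruits mesangial cells, had 281, 241, 273 and 119 CPM in glomeruli, against 33.7, 27.4, 35.8 and 28.01 CPM in whole kidney. The change was 2.80 ± 0.32 (adjusted p = 6.81e-05), with mouse 4 lowest among glomeruli. Ptn (pleiotrophin, a secreted growth factor) had 115, 195, 254 and 523 CPM in glomeruli, against 3.92, 7.93, 5.45 and 8.53 CPM in whole kidney, a change of 5.25 ± 0.37. Sfrp2, a secreted modulator of Wnt signalling, had 267, 155, 281 and 242 CPM in glomeruli, against 6.79, 3.59, 9.94 and 6.01 CPM in whole kidney, a change of 5.21 ± 0.35. Both were low in whole kidney, at 9.94 CPM at most. Des (desmin), Gata3, Itga8 and Serpine2 changed by 4.00 ± 0.41, 2.57 ± 0.33, 3.44 ± 0.45 and 4.11 ± 0.30, and the angiotensin II receptor Agtr1a by 2.25 ± 0.35 (adjusted p from 2.35e-06 for Serpine2 to 0.000717 for Agtr1a). Agtr1a did not pass with all 20 libraries in the fit (adjusted p = 0.378).

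Genes of the vascular pole and the capsule moved in both directions. Of 8 juxtaglomerular and macula densa genes tested 5 were higher and 1 lower. Ren1 (renin, chr1:133350510-133360325) had 836, 1584, 813 and 1978 CPM in glomeruli, against 60.7, 57.9, 62.6 and 62.6 CPM in whole kidney. The 4 whole kidneys were nearly equal and the 4 glomeruli were all far higher, with a change of 4.31 ± 0.27 (adjusted p = 9.05e-07). Gja4 (connexin 37) had 189, 146, 153 and 182 CPM in glomeruli, against 7.32, 10.02, 10.2 and 12.9 CPM in whole kidney, a change of 4.06 ± 0.38. Nos1, the nitric oxide synthase of the macula densa, had 19.9, 22.8, 26.7 and 113 CPM in glomeruli, against 1.57, 1.35, 1.99 and 0.962 CPM in whole kidney. Its change of 4.49 ± 0.95 had an adjusted p of 0.006, and of 0.107 without mouse 4, the highest library. Slc12a1, the cotransporter of macula densa and thick ascending limb, was the member that fell, with 85.6, 171, 141 and 79.5 CPM in glomeruli, against 508, 748, 595 and 543 CPM in whole kidney and a change of -2.39 ± 0.23 (adjusted p = 1.73e-05). Parietal epithelium gave 3 higher and 1 lower of 12 (median -0.46, close to that of all genes). Ncam1 changed by 3.93 ± 0.32, Akap12 by 2.25 ± 0.39 and Cp (ceruloplasmin) by 1.91 ± 0.31, while Cldn2, a tight junction protein shared with proximal tubule, fell to 66.1 to 144 CPM in glomeruli, against 357 to 437 CPM in whole kidney. In the fit of all 20 libraries 3 of the juxtaglomerular genes and 1 of the parietal genes were higher.

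Basement membrane and mesangial matrix genes gave 13 higher and none lower of 22 tested, with a median of 1.39. Lamb2, the laminin chain of the mature glomerular membrane, had 469.7, 533, 449 and 629.7 CPM in glomeruli, against 41.9, 47.6, 48.9 and 42.6 CPM in whole kidney. The change was 3.51 ± 0.25 (adjusted p = 1.81e-06). Its partner chain Lama5 changed by 1.904 ± 0.43 (adjusted p = 0.00849). Itga3, the podocyte integrin subunit that binds laminin, had 223, 82.5, 182 and 150.3 CPM in glomeruli, against 14.4, 15.0, 12.9 and 11.9 CPM in whole kidney, a change of 3.48 ± 0.40. Npnt (nephronectin, a ligand of integrin α8) changed by 1.82 ± 0.24 and Hspg2 (perlecan) by 2.44 ± 0.31.

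Of the 6 type IV collagen chains tested 4 were higher, and differences between chains were not tested. Col4a1 and Col4a2, the chains found in most basement membranes, changed by 1.46 ± 0.22 and 1.80 ± 0.27 (adjusted p = 0.000506 and 0.000506). Col4a5 and Col4a6 were at -1.02 ± 1.62 and 0.27 ± 3.79, with wide errors, and did not pass (adjusted p = 0.719 and 0.972). Col4a3 and Col4a4 passed, with values less certain than those of Col4a1 and Col4a2. Col4a3 had 87.6, 124, 52.6 and 347 CPM in glomeruli, against 46.9, 44.9, 46.1 and 51.1 CPM in whole kidney, and mouse 4 held the highest value by far. The change of 1.32 ± 0.43 had an adjusted p of 0.0476, and of 0.0914, 0.126 and 0.264 without mouse 1, 2 and 4. Col4a4 had 375, 491, 474 and 547 CPM in glomeruli, against 226, 268, 290.3 and 345 CPM in whole kidney, a change of 0.74 ± 0.20 (adjusted p = 0.0226, and 0.0839, 0.0645, 0.103 and 0.056 without mouse 1, 2, 3 and 4). With all 20 libraries in the fit, 8 of the 22 members were higher, and Col4a3, Col4a4, Lama5 and Itga3 did not pass.

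**Figure D2:**
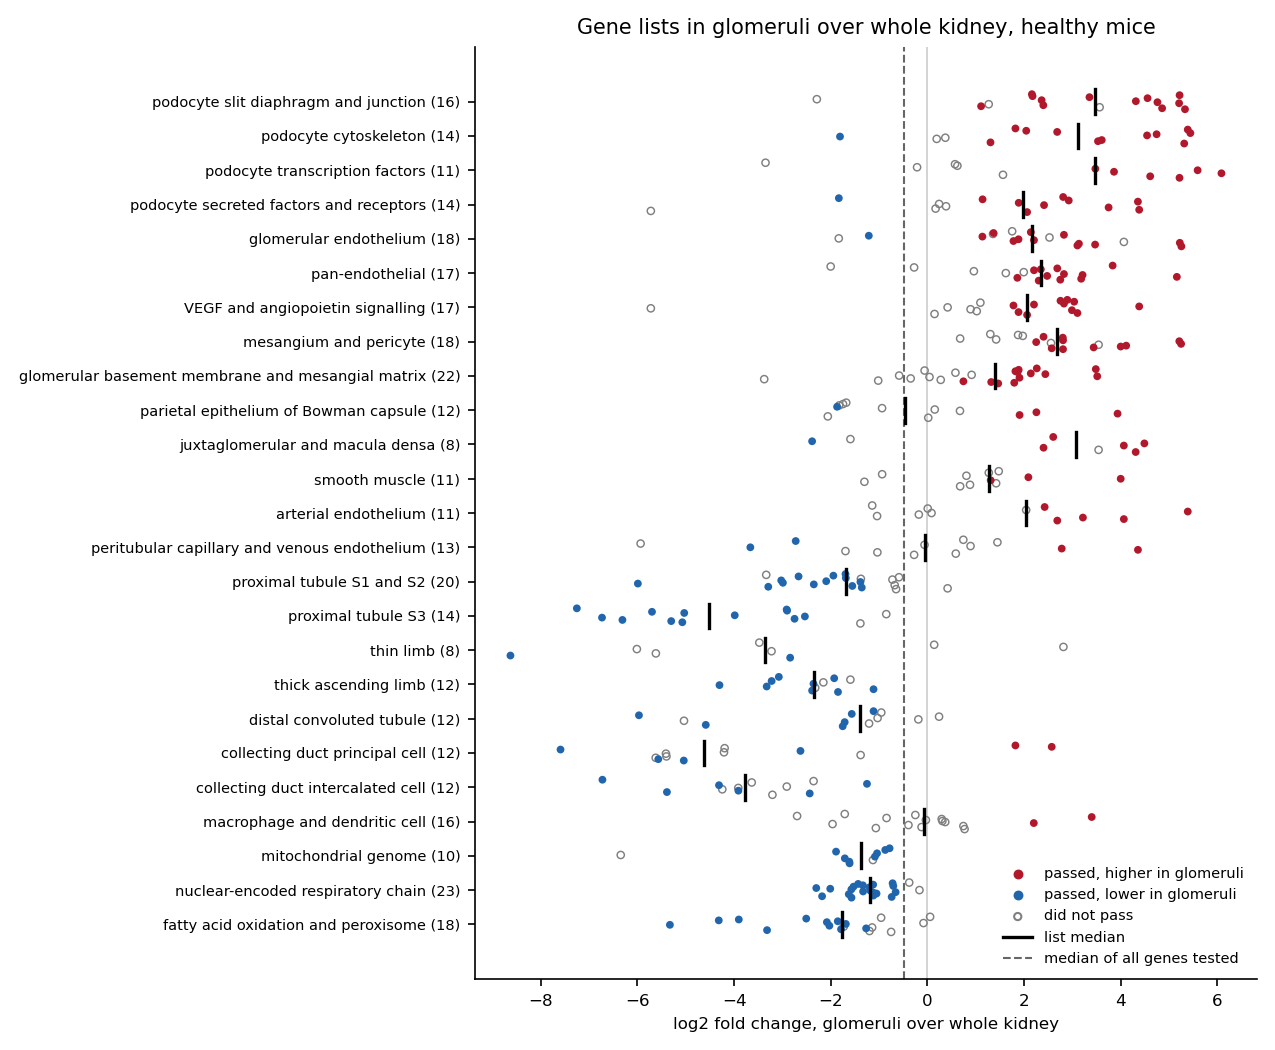
Log2 fold change of glomeruli over whole kidney for every tested member of the gene lists, 1 point per gene, with a bar at the list median, filled points for members that passed and open points for those that did not. The number of members tested stands behind each list's name. Podocyte lists sit at the high end, for example the slit diaphragm list with a median of 3.46, and tubular lists at the low end, for example proximal tubule S3 with a median of -4.51, while the dashed line marks the median of all genes, -0.49.

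Coagulation, adhesion and glycocalyx genes, which touch the endothelium, had more higher than lower members, and complement regulators had few of either. Beside these counts, 8.64% of all genes tested were higher in glomeruli and 10.6% lower. Coagulation and fibrinolysis gave 6 higher and 1 lower of 18. Anxa2 (annexin A2, a surface receptor for plasminogen and its activator) had 884, 427, 636 and 785 CPM in glomeruli, against 66.5, 69.1, 85.5 and 88.6 CPM in whole kidney, a change of 3.10 ± 0.25 (adjusted p = 4.85e-06). Plau (urokinase, which tubules make) was the member that fell, with 37.9, 14.3, 14.9 and 10.2 CPM in glomeruli, against 173, 104, 113 and 105 CPM in whole kidney and a change of -2.83 ± 0.40 (adjusted p = 0.000336). The plasminogen activators Plat and Plau thus moved in opposite directions, though neither passed with all 20 libraries in the fit (adjusted p = 0.118 and 0.278). Complement regulators gave 2 higher and 1 lower of 10. Cd59a, which blocks the membrane attack complex, had 434, 641, 557 and 476 CPM in glomeruli, against 88.4, 111, 122 and 103 CPM in whole kidney, a change of 2.31 ± 0.22 (adjusted p = 1.69e-05). C3, the central complement component, had 174, 294, 135 and 24.3 CPM in glomeruli, against 13.1, 21.2, 28.2 and 23.6 CPM in whole kidney, and mouse 4 fell within the range of whole kidney. Its change of 2.54 ± 0.61 had an adjusted p of 0.0126, and of 0.0896, 0.0851 and 0.0624 without mouse 1, 2 and 3. Of 11 leukocyte adhesion genes 7 were higher and none lower, among them F11r (JAM-A) at 1.38 ± 0.28, and of 15 glycocalyx genes 6 were higher and 1 lower. Podxl, Icam2 and Pecam1 among the adhesion genes, and Plat and Serpine2 among the coagulation genes, are also counted in podocyte, endothelial or mesangial lists. Hspg2, a glycocalyx member, stands in the basement membrane list as well. Without mouse 3, 3 of the glycocalyx genes were higher. With all 20 libraries in the fit the counts of higher genes were 2 for coagulation, 1 for complement, 3 for adhesion and 2 for glycocalyx.

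Tubular genes were lower, though far from absent. Of 20 genes of proximal tubule segments S1 and S2 none was higher and 13 were lower (median -1.69), and of 14 genes of segment S3 12 were lower (median -4.51). The summed level of the S1 and S2 list was 12050, 9889, 9819 and 11350 CPM in glomeruli, against 56080, 59020, 58360 and 57130 CPM in whole kidney, 5.35 times less. For S3 the summed level was 875 to 1579 CPM in glomeruli and 9195 to 9438 CPM in whole kidney, 8.08 times less. Tubular RNA was thus measured in all 4 glomeruli libraries, beside each of the glomerular results above, and its part in them was not tested.

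Kap (kidney androgen-regulated protein of male proximal tubule, chr6:133849851-133853762) had 5452, 3417, 4717 and 5222 CPM in glomeruli, against 35914, 37265, 37486 and 36613 CPM in whole kidney. The 4 whole kidneys lay close together and the 4 glomeruli far below them, with a change of -2.99 ± 0.13 (adjusted p = 5.35e-08). Slc34a1, the sodium-phosphate cotransporter of early proximal tubule, had 2273, 1414, 1181 and 1016 CPM in glomeruli, against 3862, 3405, 3613 and 3506 CPM in whole kidney, a change of -1.36 ± 0.18 (adjusted p = 0.000186). Acsm2, a medium-chain acyl-CoA synthetase, had 792, 656, 684 and 1583 CPM in glomeruli, against 5120.3, 5028, 5604 and 6300.5 CPM in whole kidney, with mouse 4 highest among glomeruli and still below every whole kidney. Miox, an enzyme of inositol breakdown, changed by -1.39 ± 0.20. Among S3 genes the aspartic protease Napsa changed by -3.99 ± 0.20, Acy3 by -2.54 ± 0.21, the amino acid transporter Slc7a13 by -5.07 ± 0.41 and Cyp2e1 by -2.90 ± 0.27 (adjusted p = 1.24e-07, 6.24e-06, 4.91e-06 and 1.28e-05).

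Later segments were lower too. Thick ascending limb gave 9 lower of 12 (median -2.34), distal convoluted tubule 6 of 12, intercalated cells 6 of 12, medulla and papilla 8 of 11 and thin limb 2 of 8, with no member higher in these lists. Umod (uromodulin, the main protein of the thick ascending limb) had 454, 678, 845 and 579.8 CPM in glomeruli, against 2130.2, 2526, 2086 and 2266 CPM in whole kidney, a change of -1.85 ± 0.18 (adjusted p = 2.14e-05). Slc12a3, the thiazide-sensitive cotransporter, changed by -1.75 ± 0.28 and Calb1 by -1.71 ± 0.26. The 2 lower genes of the thin limb list were the water channel Aqp1, at -2.84 ± 0.31, and Slc14a2, with 2 counts in all glomeruli. Aqp2, the vasopressin-regulated water channel of the collecting duct, had 3.86, 3.18, 19.2 and 35.4 CPM in glomeruli, against 336, 359, 288 and 345 CPM in whole kidney, a change of -5.04 ± 0.61 (adjusted p = 0.000101). Mice 3 and 4 were the higher glomeruli, and all 4 were far below whole kidney. Fxyd4 lay at 0.133 to 0.845 CPM in glomeruli, against 53.4 to 63.6 CPM in whole kidney. The proton pump subunit Atp6v1b1 of intercalated cells changed by -4.31 ± 0.68 (adjusted p = 0.000827), and pendrin (Slc26a4) by -3.91 ± 1.03 (adjusted p = 0.0212, and 0.0756 and 0.0914 without mouse 1 and 3). Of 12 collecting duct principal cell genes 4 were lower and 2 higher, and the 2 were Gata3 and Npnt, which also stand in glomerular lists. Without mouse 1 or 3, 3 intercalated cell genes were lower. With all 20 libraries in the fit the lower counts were 2 for thick ascending limb, 1 for distal convoluted tubule, 1 for intercalated cells, 4 for medulla and papilla, 1 for thin limb and 2 for principal cells.

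Energy metabolism genes were lower together with the tubular genes. Of 23 nuclear-encoded respiratory chain genes 21 were lower and none higher (median -1.18), 13 without mouse 3 and 4 with all 20 libraries in the fit. Of 10 mitochondrial genome genes tested 8 were lower (median -1.37), and of 18 genes of fatty acid oxidation and the peroxisome 11 were lower (median -1.76), 5 with all 20 libraries. Mitochondrial genes held 4.85 to 6.36% of the counts in glomeruli and 13.2 to 14.3% in whole kidney. The complex I gene mt-Nd4 had 12280, 14755, 14730 and 14099 CPM in glomeruli, against 40123, 50567, 46568 and 45580 CPM in whole kidney, a change of -1.71 ± 0.09 (adjusted p = 2.64e-07). Its replicates were tight in both groups. Atp5b, a subunit of ATP synthase, changed by -1.43 ± 0.17 and Acadm, the medium-chain acyl-CoA dehydrogenase, by -3.32 ± 0.35 (adjusted p = 9e-05 and 4e-05). The peroxisomal gene Cat (catalase) changed by -1.86 ± 0.21. Ribosomal protein genes gave 2 higher and 4 lower of 19 (median -0.20), with Rpl32 at -1.08 ± 0.20 and Rps27 at 0.93 ± 0.19. Those counts were 4 higher and 2 lower with scaling by library totals, 1 higher without mouse 1, 3 or 4, and 2, 2 and 1 lower without mouse 1, 3 and 4. With all 20 libraries in the fit no ribosomal protein gene passed in either direction.

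Vessel and blood genes other than those of capillaries were also measured in glomeruli. Smooth muscle gave 3 higher of 11 and arterial endothelium 5 of 11, with none lower in either, and 2 arterial genes were higher with all 20 libraries in the fit. Of all genes tested 8.64% were higher. Among the members counted here, Des, Sox17, Gja4 and Sema3g also stand in the mesangial, common endothelial, juxtaglomerular or podocyte lists. The smooth muscle genes Acta2, Myh11 and Tagln did not pass (adjusted p = 0.0702, 0.175 and 0.241). Rgs5 and Notch3, genes of pericytes and vascular smooth muscle, changed by 2.40 ± 0.28 and 2.80 ± 0.53 (adjusted p = 7.28e-05 and 0.00291). Both are counted in the mesangial and pericyte list. Erythrocyte and platelet genes gave 5 higher of 9, and Hbb-bs (a beta globin) had 7527, 8180.1, 5061 and 5716 CPM in glomeruli, against 1789, 2416, 1147 and 1787 CPM in whole kidney. No glomerulus library overlapped whole kidney, and the change was 1.91 ± 0.14 (adjusted p = 2.21e-06). The globin genes are near-identical copies in pairs, so reads may have been split between them. Alas2, the heme synthesis enzyme of erythroid cells, changed by 2.48 ± 0.46. Red cell RNA was thus higher in glomeruli beside the endothelial results, and its part in them was not tested.

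Markers of peritubular capillaries and veins split into 2 higher and 2 lower of 13. Cd36, a fatty acid receptor, and Car4, a membrane carbonic anhydrase, fell by 3.66 and 2.73 on the log2 scale (adjusted p = 2.25e-05 and 3.24e-05), while the natriuretic peptide clearance receptor Npr3 changed by 4.35 ± 0.38 (adjusted p = 8.21e-06). Of 13 fibroblast genes 3 were higher and 2 lower. The macrophage and dendritic cell list gave 2 higher of 16, Lyz2 (lysozyme) at 175 to 306 CPM in glomeruli and 43.9 to 56.8 CPM in whole kidney, and Mrc1 (the mannose receptor) at 31.7 to 80.6 CPM in glomeruli and 2.09 to 6.25 CPM in whole kidney. The other 14 did not pass. The list's median was -0.078, with 7 members above 0 and 9 below. Of all genes tested 8.64% were higher and 10.6% lower. Mrc1 had an adjusted p of 0.00815, and of 0.0524 without mouse 1. The T, B and NK cell list had 4 tested members, of which 1 was lower, and the neutrophil list 4, of which 1 was higher.

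Immediate early and heat shock genes gave 3 higher of 18, and 1 with all 20 libraries in the fit. Jun had 143, 132, 81.9 and 128 CPM in glomeruli, against 26.4, 25.4, 27.4 and 57.6 CPM in whole kidney, a change of 1.89 ± 0.39 (adjusted p = 0.00501). Klf2, the factor that laminar shear induces in endothelium, changed by 2.53 ± 0.33, and the small heat shock gene Hspb1 by 1.93 ± 0.41, with mouse 2 highest at 709 CPM. Of 5 long non-coding RNAs tested 3 were higher. Neat1, the RNA of nuclear paraspeckles, had 2222, 2493, 2317 and 2573 CPM in glomeruli, against 653, 888, 798 and 942 CPM in whole kidney, a change of 1.56 ± 0.15. Meg3 and Kcnq1ot1 are imprinted non-coding RNAs and changed by 4.21 ± 0.39 and 2.27 ± 0.26. Kcnq1ot1 lies antisense to Kcnq1, and reads of such pairs cannot be told apart where counting ignores strand. Tubular injury genes gave 1 higher and 1 lower of 11.

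Beyond the lists, the genes with the highest changes among those that passed, did not overlap and reached a mean of 10 CPM in the higher group were headed by AA672651, an antisense transcript with 609 counts in all glomeruli and 2 in all whole kidneys. That is a ratio of 300.0 with an exact 95% counting interval of 82.8 to 2490. It passed with all mice (adjusted p = 0.0149) and had an adjusted p of 0.103 and 0.0623 without mouse 1 and 3. Myom2 (an M-band protein of striated muscle) had 909, 720.1, 686 and 831 CPM in glomeruli, against 9.14, 6.13, 8.82 and 10.6 CPM in whole kidney. The mice lay close together within each compartment, and the change was 6.51 ± 0.26 (adjusted p = 3.45e-08). The intracellular chloride channel family gene Clic3 had 742, 257, 549.9 and 594 CPM in glomeruli, against 11.8, 8.53, 8.13 and 4.69 CPM in whole kidney, a change of 5.98 ± 0.37, and Ddn (dendrin, a slit diaphragm protein) 419.6, 398, 315 and 327 CPM in glomeruli, against 7.32, 3.29, 6.83 and 6.01 CPM in whole kidney, a change of 5.98 ± 0.35. Dync1i1, Nxph3, Gabrb1, Shisa3 and Msmp, known from other tissues such as brain, changed by 6.92, 6.41, 5.95, 5.78 and 5.82, and Dync1i1 had an adjusted p of 0.0626 without mouse 3. Wt1os, an antisense transcript of the Wt1 locus, changed by 6.39 ± 0.68, and its reads and those of Wt1 cannot be told apart if strand was not used. Lmx1b and 3110080O07Rik made up the 12. In the fit of all 20 healthy libraries AA672651, Dync1i1, Nxph3 and Wt1os did not pass (adjusted p = 0.0728, 0.127, 0.0699 and 0.0605). Nor did Gabrb1 and 3110080O07Rik (adjusted p = 0.126 and 0.0699).

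Genes at the other end were at or near 0 in glomeruli. Tmem207, Slc6a20a, Upk1a, Gal3st1 and Slc23a3 had no count in any of the 4 glomeruli libraries and 621, 461, 461, 423 and 389 counts in the 4 whole kidneys. Against a floor of 3 counts per library they were at least 51.7-fold, 37.5-fold, 36.2-fold, 36.5-fold and 30.8-fold lower in glomeruli. They are genes of tubular membranes or enzymes and, for the uroplakin Upk1a, of urothelium. Sprr1a, 9630013D21Rik and Vwa2 had 1 count in glomeruli, and Akr1c18, Slc14a2, Egfl6 and Bcat1 had 2. For Slc14a2, the urea transporter of the inner medulla and thin limb, whole kidney had 961 counts, a ratio of 487 with an exact 95% interval of 134 to 4030. For Akr1c18, a steroid dehydrogenase, it had 1076 counts, a ratio of 545 (interval 151 to 4510). The intervals and floors cover counting error only. Of these 12, Gal3st1 and Slc23a3 no longer passed without any 1 of the 4 mice, Slc6a20a and Upk1a without mouse 1, 3 or 4, Vwa2 without mouse 1 or 3, 9630013D21Rik and Tmem207 without mouse 3 and Sprr1a without mouse 4 (adjusted p = 0.0504 to 0.0955). With all 20 libraries in the fit Slc14a2, Bcat1 and 9630013D21Rik did not pass (adjusted p = 0.0761, 0.0569 and 0.0503).

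By level, Actb (beta actin) and the globin Hbb-bs were among the 8 highest genes of glomeruli and not of whole kidney, and Kap among those of whole kidney and not of glomeruli. Actb had 10938, 9645, 9894 and 12577 CPM in glomeruli, against 3364, 3998, 3321 and 3608 CPM in whole kidney, a change of 1.59 ± 0.13 (adjusted p = 4.91e-06). Gpx3, a secreted glutathione peroxidase that proximal tubule makes, was among the 8 highest in both, with 9353, 8766, 6054 and 5605 CPM in glomeruli, against 14398, 16096, 12211 and 11266 CPM in whole kidney and a change of -0.88 ± 0.12 (adjusted p = 0.000192).

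Glomeruli were also set against the mean of the 3 other microdissected compartments, with 16 libraries of the same mice. These share the 4 glomeruli libraries with the comparison above. There 4.18% of 12179 genes passed in either direction, 2.8% higher and 1.38% lower. Of the slit diaphragm list 10 of 16 were higher, of the podocyte cytoskeleton list 10 of 14, of the podocyte transcription factors 4 of 11, and of the ligands and receptors 8 of 14. Glomerular endothelium gave 8 of 18 higher, but the common endothelial list gave 1 of 17 higher and 1 lower, and the basement membrane list 3 of 21 higher. Pecam1 was at 0.65 on the log2 scale (adjusted p = 0.415) and Col4a1 at 0.15 (adjusted p = 0.935), while Lmx1b was at 7.17, Ptn at 6.81 and Emcn at 3.19 (adjusted p = 6.38e-05, 1.68e-06 and 2.1e-06). Proximal tubule S1 and S2 gave 10 of 20 lower, and thick ascending limb 0 of 12 in either direction. In peritubular capillaries, which are part of that mean, 10 of the 20 S1 and S2 genes were higher than in whole kidney. None of the 17 common endothelial genes was higher there. The count of genes that passed was 509 with all mice, and 321 and 323 without mouse 3 and mouse 4.

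Arterioles, peritubular capillaries and post-capillary venules were each also set against the same whole kidneys. As those libraries are shared, the values are given side by side and no overlap is drawn from them. In arterioles 25.3% of genes passed, 5.14% higher and 20.2% lower. In peritubular capillaries 7.82% passed, 2.11% higher and 5.71% lower, and in venules 6.12%, 1.98% higher and 4.14% lower. The slit diaphragm list had 3, 0 and 2 members higher of 15 in arterioles, peritubular capillaries and venules. The smooth muscle list had 9, 0 and 3 higher of 11, and the common endothelial list 10, 0 and 3 of 17. Nphs1 was at -3.08, -1.69 and -2.19 on the log2 scale in the 3 vessels, and passed in none. Podxl, which vascular endothelium also makes, was at 3.49, 0.35 and 1.38, and passed in arterioles and venules. Synpo and Sema3g were higher in arterioles too, at 3.69 and 5.21.

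Several vascular genes had smaller changes in glomeruli than in arterioles, though this difference was not tested. Rgs5 was at 2.40 in glomeruli and 6.85 in arterioles, Notch3 at 2.80 in glomeruli and 6.04 in arterioles, Gja4 at 4.06 in glomeruli and 6.66 in arterioles and Lamb2 at 3.51 in glomeruli and 5.26 in arterioles, all on the log2 scale over whole kidney. Ren1 was at -2.91 in arterioles (adjusted p = 0.295) and Kdr at -2.42 (adjusted p = 0.173). Proximal tubule S1 and S2 gave 12 lower of 20 in arterioles, 10 higher in peritubular capillaries, and 5 higher and 2 lower in venules. Hbb-bs was at 3.19 in arterioles, -1.30 in peritubular capillaries and 3.44 in venules, and passed in each.

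**Figure D3:**
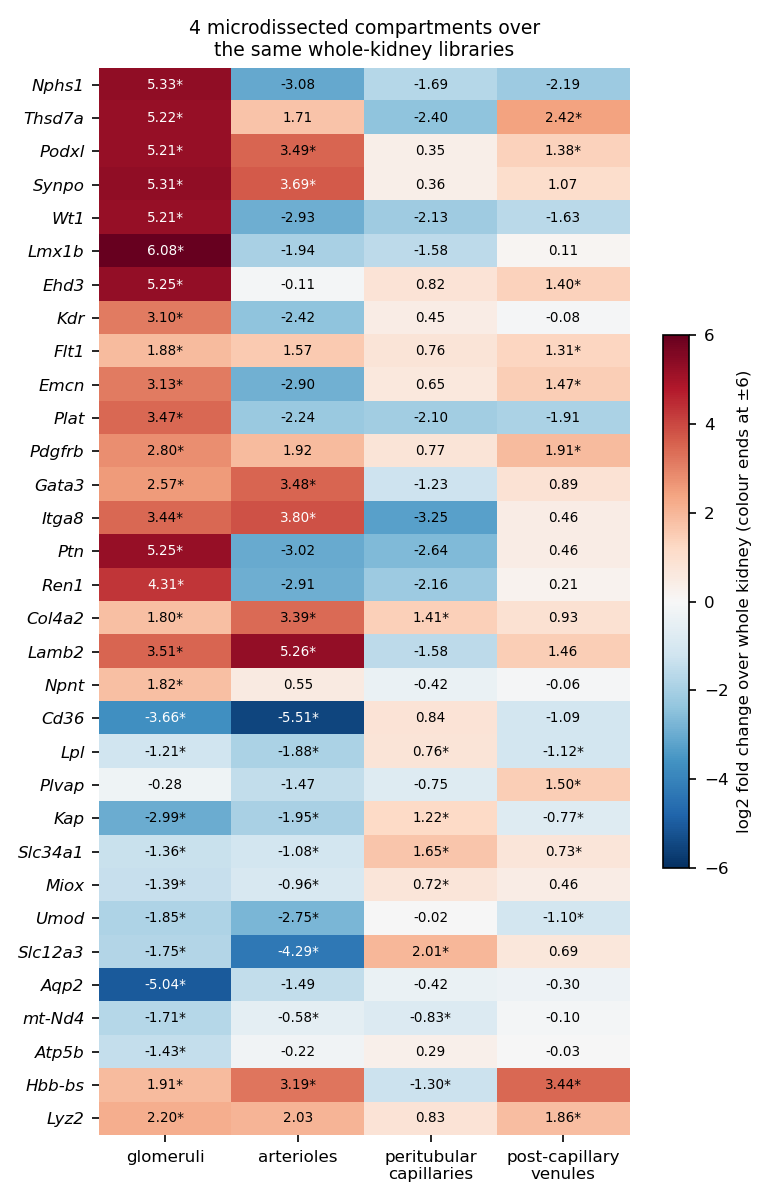
Log2 fold change over the same whole-kidney libraries in glomeruli, arterioles, peritubular capillaries and post-capillary venules of the 4 healthy mice, 1 row per gene, with red above 0, blue below 0 and an asterisk where the adjusted p was under 0.05. Nphs1 stands at 5.33 in glomeruli and at -3.08, -1.69 and -2.19 in the vessels, whereas Lamb2 stands at 3.51 in glomeruli and 5.26 in arterioles.

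The same contrast was available in 24 operated mice, 4 for each operation and time, with libraries that the healthy comparison did not use. At 4, 24 and 72 h after CLP 21, 5.41 and 10.1% of genes passed in either direction, of which 10.4, 2.65 and 5.11% of those tested were higher and 10.6, 2.76 and 4.96% lower. After sham 19, 11.5 and 9.01% passed at these times, with 8.18, 5.4 and 4.97% higher and 10.9, 6.11 and 4.04% lower. The slit diaphragm list had 14, 9 and 12 higher of 15 after CLP and 12, 11 and 11 of 15 after sham, and none lower in any group. The podocyte transcription factors had 6, 5 and 6 higher of 11 after CLP and 6, 6 and 6 of 11 after sham. Nphs1 was at 6.08, 7.84 and 6.15 after CLP and at 5.43, 7.06 and 6.99 after sham, against 5.33 in healthy mice. Ehd3 was at 4.23, 5.10 and 5.31 after CLP and at 4.93, 4.94 and 5.53 after sham, against 5.25 in healthy mice. All of these passed.

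Ren1 lay between 3.49 and 4.41 in the 6 operated groups, against 4.31 in healthy mice, and passed in each. The tubular list S1 and S2 had 14, 12 and 11 lower of 20 after CLP and 16, 13 and 10 after sham, and none higher. The mesangial list had 14, 5 and 10 higher of 18 after CLP and 12, 10 and 9 after sham. Fewer genes passed at 24 h after CLP than in the other groups, against which its counts of members should be read, and the number in each group moved when a mouse was left out. Without 1 mouse it was 399 to 582 at 24 h and 528 to 1095 at 72 h after CLP, against 685 and 1292 with all 4, and 352 to 907 at 72 h after sham, against 1133.

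**Figure D4:**
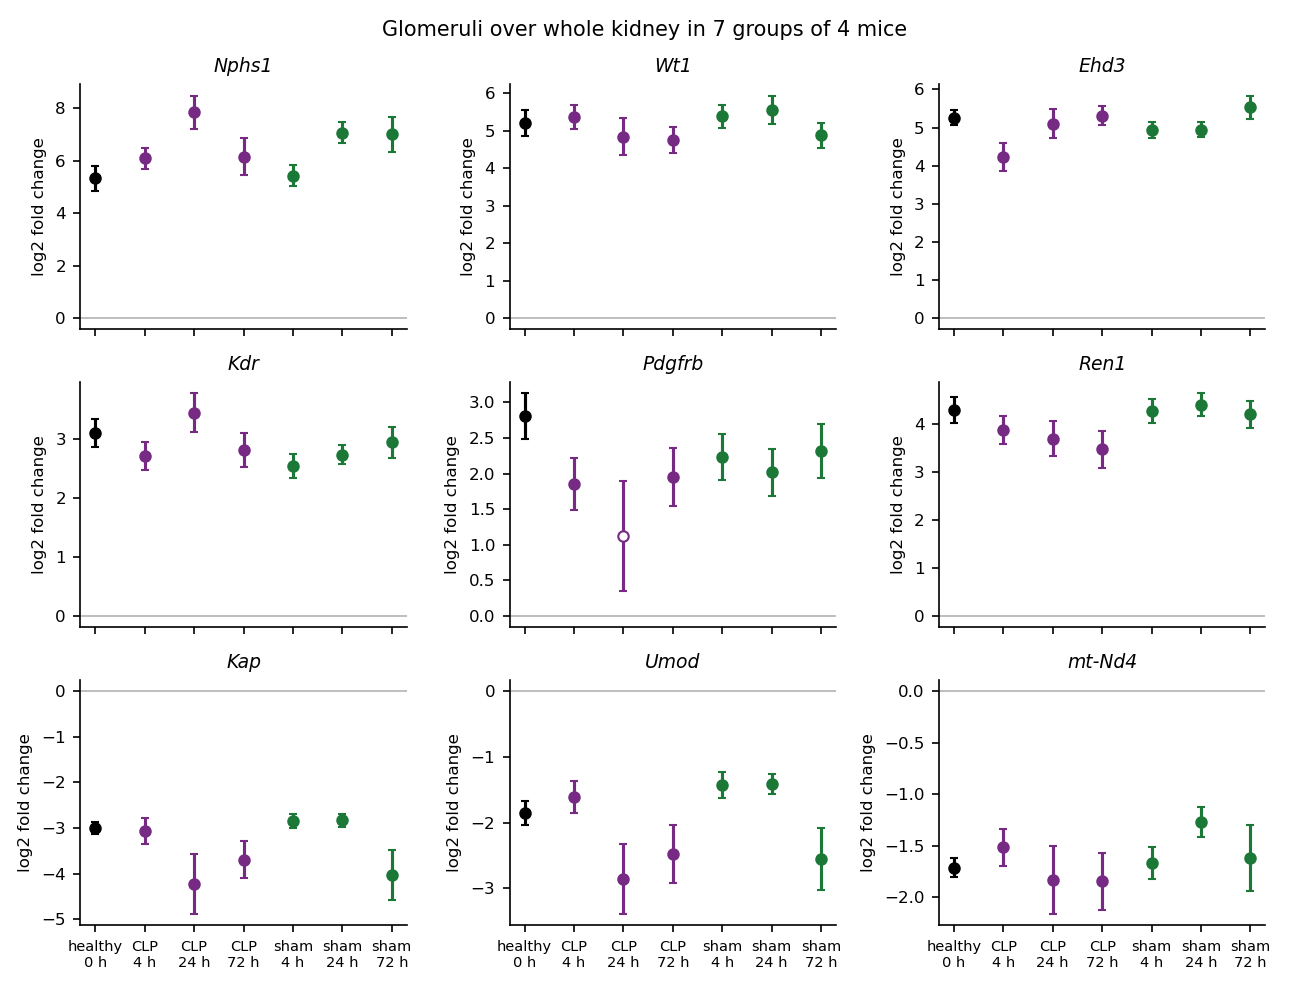
Log2 fold change of glomeruli over whole kidney, with bars of 1 SE, for 9 genes in healthy mice and in mice 4, 24 and 72 h after CLP or sham (n = 4 mice per group), with an open point where the gene did not pass. Nphs1, Wt1, Ehd3, Kdr, Pdgfrb and Ren1 lie above 0, and Kap, Umod and mt-Nd4 below 0, in all 7 groups, for example Nphs1 at 5.33 in healthy mice and 7.84 24 h after CLP.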

How the data were processed

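The values deposited by the authors are raw read counts, whole and not normalised, for 34255 Ensembl genes in 140 libraries. The submitters' processing notes list STAR 2.7, featureCounts, HTSeq 0.13, SAMtools 1.9, MultiQC 1.7 and FastQC 0.11.8, with both GRCm38.p6 and GRCm39 as builds. Which build was aligned to, which program counted, whether strand was used and how duplicates were treated is not given in the sources used here. Each gene's reads lie near its 3′ end and carry no molecular identifiers in the table, so levels are not per length and reads are not independent molecules. Gene positions are from GENCODE M21 (GRCm38), which holds 34193 of the identifiers, and promoters from RefSeq tables.

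Libraries were grouped by the compartment and disease labels, and the mouse number in the titles ties the libraries of an animal together. For healthy mice the table carries 4 h in its hours row where the labels have 0 h, and the label was taken. The fit was edgeR 4.0.16 in R 4.3.3 (limma 3.58.1), with filterByExpr (minimum count 10), TMM scaling, a robust quasi-likelihood fit and a two-sided F test, mouse plus compartment as terms, and Benjamini-Hochberg adjustment over all genes tested (threshold 0.05). CPM are counts per mega counts of the TMM-scaled total. The 2 libraries of a mouse come from the same animal, so the mouse is a block. Deviations of same-numbered libraries from their group means correlated at 0.0472, -0.0179, 0.0134 and 0.0632 for mice 1 to 4. The other comparisons used the same fit, the one against other microdissected compartments with 16 libraries. Alternatives were DESeq2 1.42.0, limma voom, other scalings and filters, no block, all 20 healthy libraries, thinned counts and leaving out each mouse. The script was tested on simulated data.

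Genes were named by rule: the 4 markers of the label, any member of the podocyte, glomerular endothelial, mesangial, parietal, juxtaglomerular and basement membrane lists, up to 6 members with the highest mean CPM of each other list plus members that moved against it, the 12 genes at each end of the fold changes, and the 8 highest by level in each compartment. The members, the 38 lists (526 genes, 458 tested) and the tests were chosen with earlier results of these data known. Members are not replicates, and a list's count and median describe it without a test. A gene with no counts is bounded at 3 counts per library, and intervals are exact 95% counting intervals. Some genes that the rule names are not reported here.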

Additional observations from a re-analysis of the deposited data

Results flagged for a closer look

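Single libraries stood apart from the other 3 of their compartment in 24 of 363 groups of 4 values looked at, by a gap that took most of the group's range (Dixon's criterion), which chance gives in about 1 group in 20. No gene named above had all mice of an operated group on the other side of 0 from the healthy mice, over 854 such contrasts set beside them.

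Among glomeruli, mouse 4 was highest for Nphs1 (895 CPM, against 137 to 184 in the other 3 mice), Nos1 (113 CPM, against 19.9 to 26.7) and Acsm2 (1580 CPM, against 656 to 792), and its summed basement membrane list was 5280 CPM, against 4820 to 4880. Mouse 2 was highest for Dcn (71.9 CPM, against 26.8 to 32.2) and lowest for the fibroblast list (1260 CPM, against 1600 to 1660). Mouse 1 was highest for Plau (37.9 CPM, against 10.2 to 14.9) and lowest for Igfbp5 (404 CPM, against 705 to 767). Mouse 3 was highest for Angpt1 (1.93 CPM, against 0 to 0.134), and its library had 9790000 counts, against 7300000 to 7530000.

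Among whole kidneys, mouse 1 was highest for Plau (173 CPM, against 104 to 113), Plvap (129 CPM, against 108 to 111), Dpp4 (49.5 CPM, against 36.8 to 38.2), mt-Nd1 (30100 CPM, against 26300 to 26800) and the tubular injury list (728 CPM, against 592 to 606), and lowest for Mrc1 (2.09 CPM, against 5.83 to 6.25) and Cd2ap (57.7 CPM, against 66.0 to 67.2). Mouse 2 was highest for Icam2 (19.4 CPM, against 15.1 to 15.8), Myh9 (288 CPM, against 207 to 220.0), Des (25.7 CPM, against 10.3 to 10.7), the thick ascending limb list (4660 CPM, against 4030 to 4140) and the mitochondrial list (163000 CPM, against 141000 to 144000). Mouse 3 was highest for Igfbp5 (316 CPM, against 274 to 280.0) and mouse 4 for Jun (57.6 CPM, against 25.4 to 27.4). Plau was high in both libraries of mouse 1. What sets these libraries apart was not tested.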

How the results depend on the processing

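Of 146 genes named, 141 passed, 89 of them under every alternative that tested them, and none of those that passed changed direction under any. Col4a6, which did not pass, was at 0.27 on the log2 scale, at -0.101 with limma voom, and at -2.21 to 2.37 without 1 mouse. With all 20 healthy libraries in the fit 45 of the named genes no longer passed, and 504 genes passed in all, against 2511. Without mouse 1, 2, 3 and 4, 14, 8, 14 and 10 of the named genes no longer passed. DESeq2, given the 24349 genes with any count and using its default filter on low counts, passed 4986. Other tools, scalings and filters passed 1950 to 3126. Without 1 mouse 1288 to 1778 passed. The fit without the replicate block passed 2979, 1604 higher and 1375 lower, and moved the median of all genes by 0.64. Limma voom with sample weights moved it by 0.30. Without the block 492 genes passed in glomeruli against the other microdissected compartments, against 509, and 321 to 417 without 1 mouse. In operated mice the fit without the block passed 1625 genes 24 h and 2357 genes 72 h after CLP, against 685 and 1292, and 2394 and 2334 at those times after sham, against 1503 and 1133. Without 1 mouse the counts were 1594 to 2298, 399 to 582 and 528 to 1095 at 4, 24 and 72 h after CLP, and 1476 to 1884, 899 to 1139 and 352 to 907 after sham. The cause of these differences was not tested. Each group has 4 mice at most, and glomeruli varied more between mice than whole kidney.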
